A study of Drosophila melanogaster with 6 samples.

Results

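The genes described here encode the proteins of the mitochondrial ribosome of Drosophila melanogaster. They were chosen by name: every probe set (the group of oligonucleotides on the array that reports a transcript) whose platform annotation gives a single gene symbol starting with mRpL, for the large subunit, or mRpS, for the small subunit. This gave 66 probe sets for 64 genes, out of 13966 probe sets for fly RNA. Of these 66, 45 report genes named for the large subunit and 21 report genes named for the small subunit. One further annotated probe set, which names mRpS10 together with another gene, was left out by this rule. The 64 genes are part of the 73 with such symbols in the RefSeq gene table, and the other 9 were not analysed here.

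The RNA came from wing imaginal discs, the larval epithelial sacs that form the adult wing, its hinge and the dorsal thorax. Discs of wild-type larvae at the third instar were divided by dissection into body wall and wing/hinge pieces, and both groups are wild type with no treatment, no transgene and no further strain name in the labels. Total RNA of each fragment was hybridised to Affymetrix arrays, 3 for body wall and 3 for wing/hinge, which the labels call biological replicates. Nothing in the labels says whether animals were pooled or how many discs went into a sample, so the p-values measure the spread between these samples. Body wall 1 and body wall 2 carry aliases with the same number, and whether they share RNA is not stated.

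Mitochondria keep a small genome whose messenger RNAs encode core subunits of the respiratory chain and of ATP synthase, and a dedicated ribosome inside the organelle translates them. All protein parts of that ribosome are encoded in the nucleus, made in the cytosol and imported. Some belong to families shared with the bacterial ribosome, and others are found only in mitochondria. In the fly, loss of single members limits growth: mRpL12 is needed for the growth driven by cyclin D and its kinase Cdk4, and mutants of bonsai, the gene for small subunit protein S15, stay small.

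No mitochondrial ribosomal protein gene differed between body wall and wing/hinge by the test across all probe sets. All 66 member probe sets lay above the intensity floor of 20.4 on all 6 arrays, so the filter on low values removed none, and all 66 were tested. None was called in either direction (limma, Benjamini-Hochberg adjusted p under 0.05 over 11698 probe sets). Over all probe sets tested, 0.915% were called, 0.325% toward wing/hinge and 0.59% toward body wall, so a group of this size would hold few calls at that share. At an unadjusted limma p under 0.05 there was 1 member, mRpS28, against 8.97% of all probe sets tested. The lowest adjusted p among the members was 0.5.

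The differences were also small in size. The log2 differences, body wall minus wing/hinge, ran from -0.38 to 0.61 with a median of 0.145, and no member reached a log2 difference of 1, that is a 2-fold difference, which 7.68% of all probe sets tested did. A positive difference was found in 49 of the 66 and a negative one in 17, and 52.7% of all probe sets tested were positive, with a median of 0.027. When the arrays were instead scaled to equal medians, 39 of the 66 were positive and the member median was 0.041. With that scaling the median over all probe sets tested was -0.069, so the member median lay 0.11 above it, against 0.118 in the main analysis. The SD of the log2 differences over the members was 0.23, and 0.59 over all probe sets tested.

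A missed threshold does not show that levels were equal, so the intervals state what sizes remained possible. For 48 of the 66 members the 95% interval of the log2 difference lay wholly within 2-fold in either direction, which was so for 41.2% of all probe sets tested. The interval of 15 members reached 2-fold toward body wall and that of 5 reached 2-fold toward wing/hinge. Only the dimmer mRpL12 probe set and mRpL43 had intervals reaching 2-fold on both sides. For mRpL43, a large subunit protein found only in mitochondria, the intensity was 429, 353 and 92.4 on the body wall arrays and 280.3, 112 and 252 on the wing/hinge arrays. One array in each group was thus well below the others, and the interval of the log2 difference, -1.28 to 1.82, was the widest of the 66. The standard errors of the members ran from 0.20 to 0.65.

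**Figure D1:**
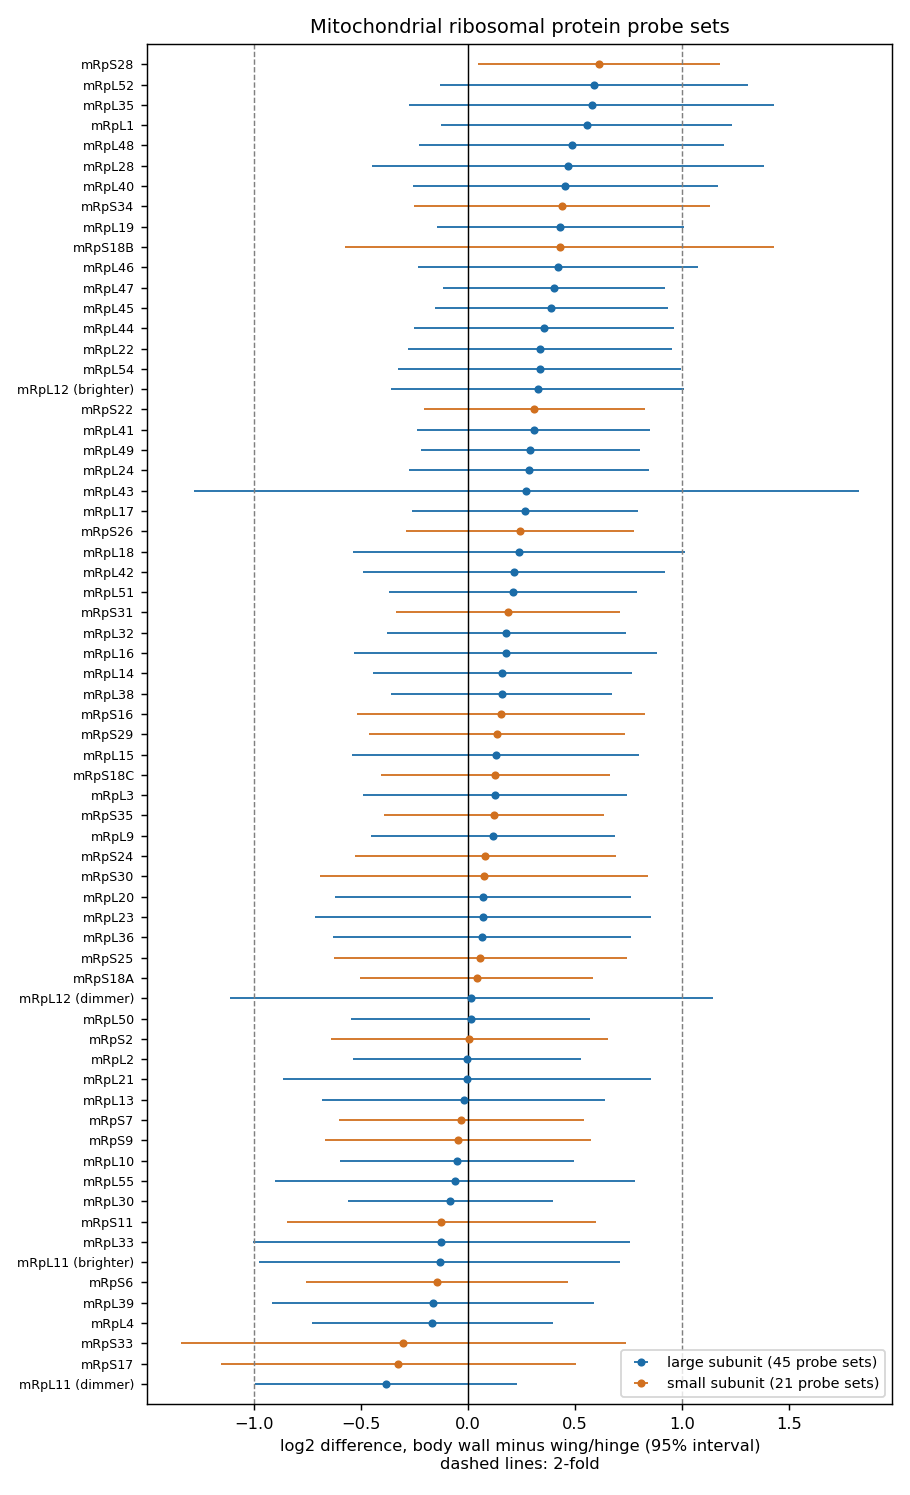
Log2 difference in intensity, body wall minus wing/hinge (horizontal axis), for each of the 66 probe sets (one per line), as points with 95% intervals from limma, coloured by subunit. All points lie between -0.38 and 0.61, inside the dashed 2-fold lines, and only the interval of mRpS28 does not include 0.

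At the body wall end of the order stood mRpS28, a small subunit protein whose mammalian counterpart belongs to the bacterial S1 family. Its intensities were 692, 491 and 584 on the body wall arrays and 341, 381 and 427 on the wing/hinge arrays, with no overlap between the groups. The mean intensity was 589 ± 100.2 for body wall against 383 ± 43 for wing/hinge (SD, n = 3 each). The log2 difference was 0.61 (SE 0.24), with an interval of 0.047 to 1.18 (limma adjusted p = 0.5). It was therefore not called, though its interval excluded 0 before adjustment.

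Next in order was mRpL52, a mitochondria-specific protein of the large subunit, with 519, 632 and 365 on the body wall arrays and 404, 338 and 258 on the wing/hinge arrays. Its groups overlapped through body wall 3, the lowest body wall array, and the log2 difference was 0.59 (SE 0.30). For mRpL35, of a family shared with bacteria, the intensities were 386, 529 and 316 on the body wall arrays and 344, 329.8 and 172 on the wing/hinge arrays. Wing/hinge 3 lay well below all other arrays there, and the log2 difference of 0.58 (SE 0.36) had an interval of -0.28 to 1.43. The counterpart of mRpL1 in bacteria forms the mobile L1 stalk that handles the leaving tRNA, and in these discs mRpL1 gave 365, 324 and 427 on the body wall arrays and 238, 194 and 344 on the wing/hinge arrays. Its log2 difference was 0.55 (SE 0.29), with wing/hinge 3 inside the body wall range.

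The remaining large values toward body wall came from genes of both kinds. The mitochondria-specific mRpL48 and mRpL40 gave log2 differences of 0.48 and 0.46, and mRpS34, a mitochondria-specific protein of the small subunit, gave 0.44. Of bacterial families, mRpL28 gave 0.47, mRpL19, which sits at the subunit interface in bacteria, gave 0.43, and mRpS18B, one of 3 S18 paralogues, gave 0.43. In each of these 6 genes the 2 groups overlapped. The mRpS18B intensities were 243, 299 and 259 on the body wall arrays and 369.9, 174 and 120.3 on the wing/hinge arrays. The 3 wing/hinge arrays thus lay on both sides of all body wall values, and the SE was 0.42.

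The wing/hinge end reached smaller sizes. Here mRpL11, whose bacterial counterpart lies at the base of the stalk that recruits the GTPase translation factors, had its dimmer probe set at 113, 125 and 149.9 on the body wall arrays and 193, 184 and 131 on the wing/hinge arrays. That log2 difference was -0.38 (SE 0.26) (limma adjusted p = 0.764), with wing/hinge 3 inside the body wall range. The small subunit gene mRpS17, of an rRNA-binding family in bacteria, gave 282, 388 and 193 on the body wall arrays and 389, 425 and 250.4 on the wing/hinge arrays, a log2 difference of -0.33 (SE 0.35). The mitochondria-specific mRpS33 measured 687, 569 and 278 on the body wall arrays and 810.0, 651 and 387 on the wing/hinge arrays, a log2 difference of -0.30 (SE 0.44). In both genes the array numbered 3 was the lowest of its own group, and the spread within each group was larger than the difference between them.

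Other members toward wing/hinge lay close to 0. The tunnel protein gene mRpL4 gave -0.17, mRpL39, which resembles threonyl-tRNA synthetase in sequence, gave -0.16, and the platform protein genes mRpS6 and mRpS11 gave -0.15 and -0.12. For mRpL33 the log2 difference was -0.12. The value for mRpL30 was -0.083 (SE 0.20), and this was the single member whose 3 wing/hinge values all lay above the body wall values: 673, 682 and 647 on the body wall arrays and 690.1, 683 and 749 on the wing/hinge arrays. The 6 arrays lay close together, and the highest body wall value was just under the lowest wing/hinge value.

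**Figure D2:**
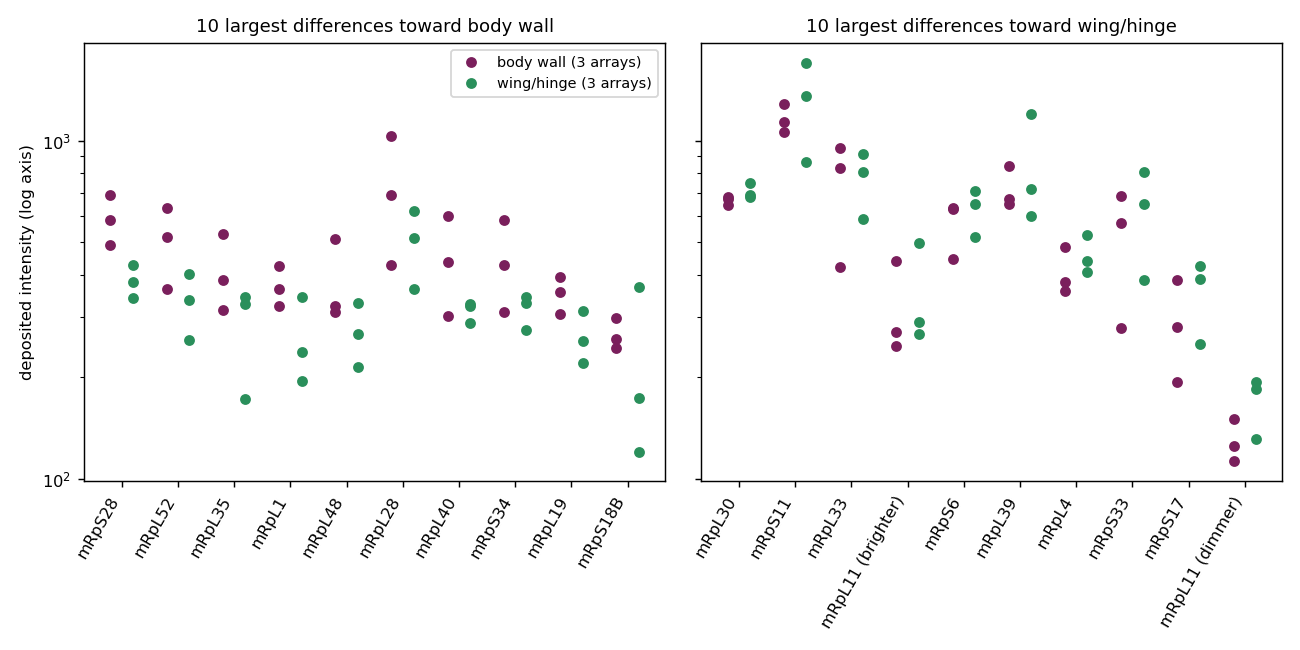
Deposited intensity (log axis) of the 10 member probe sets with the largest log2 differences toward body wall (left) and of the 10 with the largest toward wing/hinge (right), with 1 point per array. The groups overlap in all of them except mRpS28 on the left and mRpL30 on the right.

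Groups that did not overlap were found for 5 of the 66 members, or 7.58%, while 15.0% of all probe sets tested had such groups. Of these, 4 were higher in body wall, namely mRpS28, mRpL47, mRpL45 and mRpL49, against 8.48% of all probe sets, and 1, mRpL30, was higher in wing/hinge, against 6.53%. The genes mRpL47, mRpL45 and mRpL49 were named after their values were seen. The mRpL47 intensities, of a protein related to bacterial L29 at the exit of the tunnel, were 567, 487 and 454 on the body wall arrays and 418, 356 and 364 on the wing/hinge arrays, a log2 difference of 0.40 (SE 0.22). For mRpL45, which in mammals helps attach the ribosome to the inner membrane, they were 829, 912 and 806 on the body wall arrays and 577, 600.0 and 782 on the wing/hinge arrays. Body wall exceeded wing/hinge there by 0.39 (SE 0.23) on the log2 scale, with wing/hinge 3 close to the lowest body wall array. For the mitochondria-specific mRpL49 the log2 difference was 0.29 (SE 0.21). None of the 4 passed the test, with limma adjusted p = 0.5 to 0.792.

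The genes mRpL12 and mRpL11 had a pair of probe sets each. The brighter mRpL12 probe set, which reports the stalk protein that binds the translation factors, measured 1358, 1486 and 1047 on the body wall arrays and 1217, 1181 and 749 on the wing/hinge arrays, a log2 difference of 0.33 (SE 0.29). The dimmer one lay between 23.2 and 72.4, a range that overlaps the values of 23 control probe sets for RNA of other organisms, whose 95th percentile was 55.1 and maximum 91.8. Its log2 difference of 0.015 (SE 0.47) thus comes from values close to background. For mRpL11 the probe sets gave -0.38 and -0.13, of the same sign. Besides these, 64 of the 66 probe sets lay above the highest control value on every array, and the lowest value among all but the dim mRpL12 probe set was 90.0, for mRpL41.

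Grouped by place in the ribosome, every set held differences on the same small scale. The remaining stalk gene, mRpL10, gave -0.052, so the 5 stalk probe sets ran from -0.38 to 0.33 with a median of -0.052. The genes nearest the catalytic centre were mRpL2 at -0.005, mRpL3 at 0.12 and mRpL16 at 0.18. Their median was 0.124, near the 0.145 of all members. The intensities of mRpL2 were 539.9, 601 and 601 on the body wall arrays and 566, 683 and 509.9 on the wing/hinge arrays, and its interval of -0.54 to 0.53 lay within 2-fold. Of the 6 genes grouped around the exit tunnel, which do not include mRpL47, mRpL22, mRpL24, mRpL17, mRpL23 and mRpL45 were positive and mRpL4 was negative, with a median of 0.28, and all 6 intervals lay within 2-fold. The other 16 large subunit probe sets of bacterial families, mRpL47 among them, had a median of 0.144, from -0.12 to 0.58.

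Among genes named for the small subunit, the 12 of families shared with bacteria had a median of 0.024, with 7 positive and 5 negative. The gene mRpS7, whose bacterial counterpart starts assembly of part of the small subunit, measured 2127, 1754 and 1390.0 on the body wall arrays and 1774, 1745 and 1785 on the wing/hinge arrays, a log2 difference of -0.031. The 3 S18 paralogues gave 0.041 for mRpS18A, 0.43 for mRpS18B and 0.13 for mRpS18C. The 9 mitochondria-specific genes named for the small subunit had a median of 0.135, with 8 positive. They include mRpS29, whose mammalian counterpart binds GTP, at 0.14, and mRpS30, whose mammalian counterpart sits in the large subunit, at 0.075.

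Across the whole ribosome, the 25 mitochondria-specific probe sets had a median log2 difference of 0.24, with 22 positive, and the 41 of bacterial families had 0.081, with 27 positive. Genes named for the large subunit had a median of 0.18 over 45 probe sets, and those named for the small subunit 0.081 over 21. These are descriptions without a test. The mean log2 intensity of the 25 mitochondria-specific probe sets was 9.04, 9.22 and 8.78 on body wall arrays 1 to 3 and 8.89, 8.79 and 8.68 on wing/hinge arrays 1 to 3. For the 41 of bacterial families it was 9.09, 9.15 and 8.86 on body wall arrays 1 to 3 and 9.04, 8.94 and 8.76 on wing/hinge arrays 1 to 3. In both classes the groups overlapped, with body wall 3 below at least 1 wing/hinge array.

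Arrays of the same fragment differed more than the fragments did. The median intensity of the 66 members was 542, 595 and 438 on body wall arrays 1 to 3 and 535, 489 and 436 on wing/hinge arrays 1 to 3. Body wall 2 was the highest array, and the array numbered 3 was the lowest in both groups. Body wall 3 held the lowest body wall value in 46 of the 66 members, or 69.7%, while it did so in 28.1% of all probe sets tested. Wing/hinge 3 held the lowest wing/hinge value in 38, or 57.6%, against 30.9% of all probe sets. Most members thus shared the array on which they were lowest. On the log2 scale the mean over members was 9.07, 9.18 and 8.83 on body wall arrays 1 to 3 and 8.99, 8.89 and 8.73 on wing/hinge arrays 1 to 3, so the groups overlapped. The difference between the group means, 0.16, was close to the SDs of 0.18 in body wall and 0.13 in wing/hinge (n = 3 each).

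**Figure D3:**
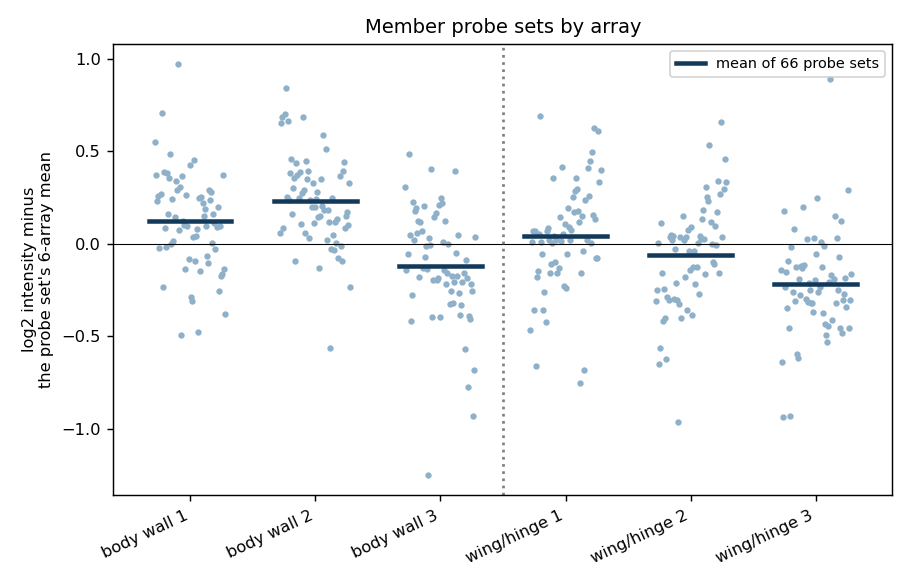
Log2 intensity of each member probe set minus its mean over 6 arrays (vertical axis), for each array (horizontal axis), with 1 point per probe set and a bar at the mean of the 66. The bars of body wall 3 and wing/hinge 3 lie below those of the other arrays of their group, and the groups overlap.

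The arrays also fall into sets by their brightest value, which the labels do not mention. Wing/hinge 1, wing/hinge 2 and body wall 1 had a maximum of at least 24976, and their actin 3' to 5' signal ratios were 1.92 to 2.98. The other 3 arrays stayed at or under 14881, with ratios of 1.12 to 1.28. With this split as a block, no member was called, 55 of the 66 were positive and the median was 0.22. Within the brighter set the member median was 0.073 and within the dimmer set 0.305, each resting on a single array of one fragment and so without a test. The part of this split in the members' differences was not tested further.

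Respiratory chain genes, which share the organelle but not the rule, gave no call either. Of 67 probe sets tested, none was called in either direction, 47 were positive, and the median log2 difference was 0.075. Their highest value was 0.90 (SE 0.555) for ND-51L1, a paralogue of a complex I subunit, computed with wing/hinge 2 and wing/hinge 3 raised to the floor. Their lowest was -0.73 (SE 0.54) at the dimmer of the probe sets for ATPsynC, the ATP synthase ring subunit, whose brighter one gave 0.064. Both had overlapping groups. Body wall 3 was again the lowest body wall array in 70.1% of them, and wing/hinge 3 the lowest wing/hinge array in 73.1%. The mean log2 level of the mitochondrial ribosomal genes minus that of the respiratory chain genes differed between the fragments by 0.068, with SDs of 0.11 and 0.072 (n = 3 each).

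Cytosolic ribosomal protein genes, which encode the ribosome that makes the mitochondrial ribosomal proteins themselves, varied more between arrays. Of 35 probe sets tested none was called, 27 were negative and 8 positive, and the median log2 difference was -0.35. The lowest was -3.07 (SE 3.02) for RpL17, computed with body wall 2 raised to the floor. RpL17 measured 16083, 7.4 and 62.4 on the body wall arrays and 12768, 14526 and 65.5 on the wing/hinge arrays. The list also holds genes named as similar to cytosolic ribosomal protein genes, such as RpLP0-like at 0.53, and dim ones, such as RpS19b at 1.40 and RpL10Aa at -0.54. Their median intensity was 20710.0, 4094 and 6738 on body wall arrays 1 to 3 and 15660.0, 19400.0 and 5764 on wing/hinge arrays 1 to 3, high on the 3 arrays of the brighter set and low on the others. Cytosolic ribosomal probe sets lie near the brightest values that define this split: RpS30 measured 35501 on body wall 1, where the maximum was 36735. That they follow the split is therefore largely set by its definition and is not a separate result. With the split by brightest value as a block their median was 0.13, of the other sign, while that of the mitochondrial ribosomal genes stayed positive. The contrast under this block carries the same limit. The mean log2 level of mitochondrial minus cytosolic ribosomal genes was -3.65, -1.80 and -2.56 on body wall arrays 1 to 3 and -3.36, -3.70 and -2.49 on wing/hinge arrays 1 to 3. Those values contain the cytosolic genes and so also follow the brightness of the array, and the groups overlapped.

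**Figure D4:**
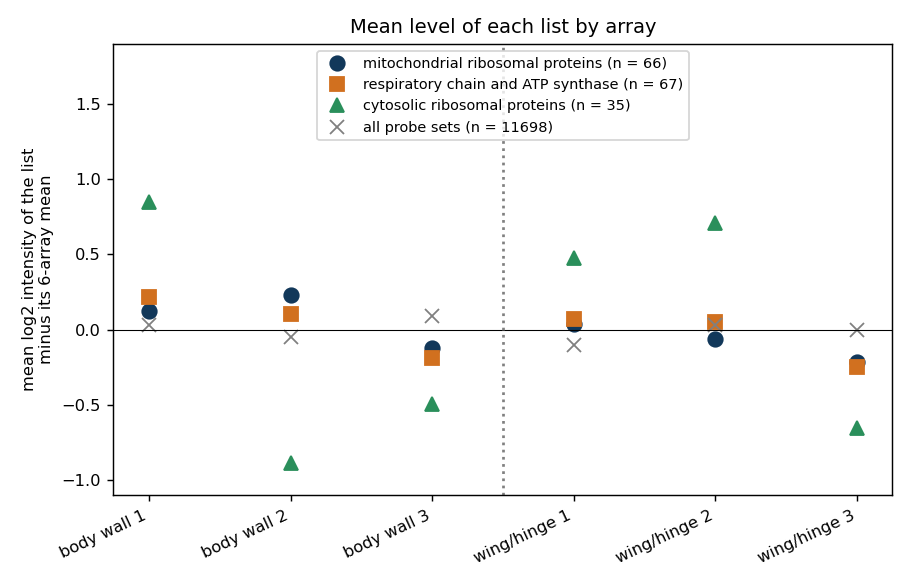
Mean log2 intensity of each gene list minus its own mean over 6 arrays (vertical axis), by array (horizontal axis), with 1 symbol per list. Cytosolic ribosomal genes spread from -0.89 on body wall 2 to 0.85 on body wall 1, while the mitochondrial ribosomal genes run from -0.22 to 0.23.

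**Figure D5:**
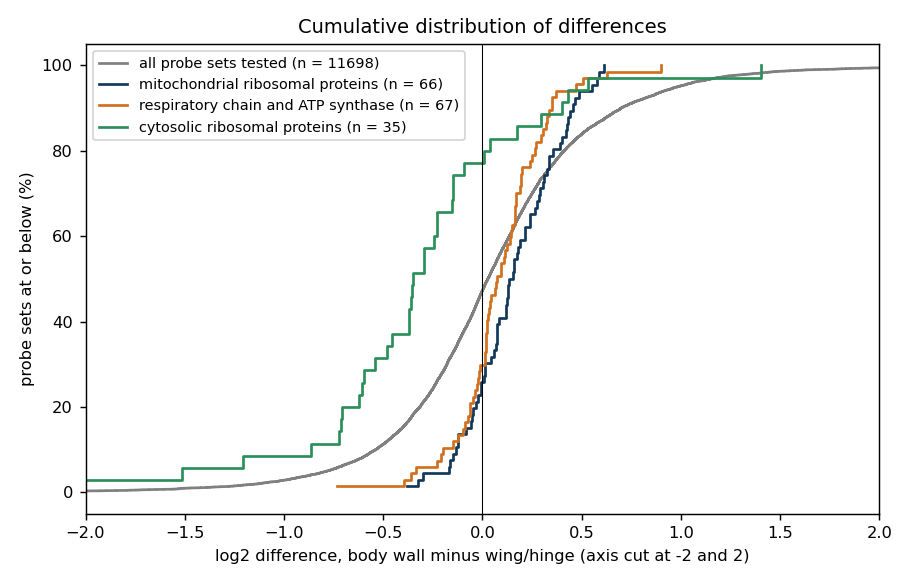
Share of probe sets (vertical axis, percent) at or below each log2 difference, body wall minus wing/hinge (horizontal axis), for the mitochondrial ribosomal genes, respiratory chain genes, cytosolic ribosomal genes and all probe sets tested. The mitochondrial ribosomal curve is steep, with quartiles of -0.002 and 0.32, and the cytosolic curve lies to its left, with a median of -0.35.

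Other genes of mitochondrial translation gave no call either. The ribosomal protein genes that carry older names were not called: tko, which encodes small subunit protein S12, gave 687, 629.6 and 433 on the body wall arrays and 683, 593 and 566 on the wing/hinge arrays, a log2 difference of -0.10 (SE 0.26), and bonsai gave 759, 814 and 702 on the body wall arrays and 774, 614 and 736 on the wing/hinge arrays, a difference of 0.10 (SE 0.22). Both intervals lay within 2-fold. Of 10 translation factor genes 9 were tested and none was called, with a median of 0.002. They ran from -0.38 (SE 0.71) for the recycling factor gene mRRF1, with body wall 3 raised to the floor, to 0.36 (SE 0.23) for GatA, an amidotransferase subunit. Of 15 probe sets for mitochondrial aminoacyl-tRNA synthetases, which charge tRNAs inside the organelle, none was called, 11 were positive and the median was 0.24. Their largest value was PheRS-m at 0.64 (SE 0.28), with limma adjusted p = 0.575. The lowest was GluRS-m at -0.58 (SE 0.33), computed with body wall 1 and body wall 2 raised to the floor.

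Genes that maintain and transcribe mitochondrial DNA included no call among 14 probe sets tested, with a median of 0.15. The largest difference was that of mtDNA-helicase, the replicative helicase of the organelle, with 222, 144 and 229 on the body wall arrays and 83.9, 82.6 and 124 on the wing/hinge arrays. Its groups were apart, at a log2 difference of 1.03 (SE 0.30), and it did not pass (limma adjusted p = 0.308). On the other side, Lon, the matrix protease that degrades unbound TFAM, gave -0.56 (SE 0.24). The packaging factor TFAM itself gave 0.25 (SE 0.21). In this list 5 of 14 probe sets, or 35.7%, had groups that did not overlap, against the 15.0% of all probe sets tested.

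Nuclear regulators with a known link to mitochondrial or growth genes all had negative values, and none was called. For Dref, the factor that binds the DNA replication-related element, the brighter probe set gave -0.14 (SE 0.28) and a dimmer one, with values down to 12.4, gave -1.35 (SE 0.50) (limma adjusted p = 0.469). The difference at the dimmer probe set is computed with body wall 3 raised to the floor. The counterpart of human NRF-1, ewg, gave -0.081. CycD and Cdk4, whose growth effect needs mRpL12, gave -0.27 and -0.30. The oxygen-sensing hydroxylase gene Hph had log2 differences from -0.285 to -0.041 at 3 probe sets.

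On the chromosome, 2 of the 64 member genes, or 3.12%, have an immediate protein-coding neighbour that was called, against 1.35% of all tested genes, by gene order in the RefSeq table. They are mRpL13 beside the LIM homeobox gene tup, and mRpL22 beside the integrin gene if, and were named after their values were seen. The called tup probe set had a mean of 237 in body wall against 4.47 in wing/hinge, the latter under the floor. The mRpL13 intensities were 1168, 1078 and 760.3 on the body wall arrays and 1170.5, 1077 and 794 on the wing/hinge arrays, a log2 difference of -0.021 (SE 0.28). For if the means were 98.3 and 284, a log2 difference of -1.525 (limma adjusted p = 0.0386), while mRpL22 gave 0.34 (SE 0.26), not called and of the other sign.

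The fragments themselves carried their labels. Of body wall marker probe sets, 5 of 6 were called higher in body wall, and of wing pouch markers 5 of 9 tested were called higher in wing/hinge, with none in the other direction. Markers of adult muscle precursors, cells that lie under the notum, gave 5 calls of 13 tested, all toward body wall. Of the 13, 8 were positive and 5 negative. The brightest, an Nrt probe set, was among the negative ones, with means of 1588 in body wall and 2146 in wing/hinge. The summed intensity of all 17 of their probe sets, Nrt included, was 4540 to 5220 in body wall and 3042 to 3192 in wing/hinge. Haemocyte markers gave 1 call of 7, toward body wall, with sums over 10 probe sets of 1640 to 1804 and 469 to 565. That call was Col4a1, with means of 867 in body wall and 176 in wing/hinge. With vkg, at 390 and 68.2, it made up most of the body wall sum. All 7 were positive, but Hml, at 73.1 and 37.2, and eater, at 53.9 and 32.2, were dim and their groups overlapped. None of 5 fat body, 6 tracheal or 4 larval muscle probe sets was called. The summed fat body intensity was 974 to 1158 in body wall and 324 to 785 in wing/hinge, and the tracheal sum 7657 to 8578 and 4836 to 5561. Most of the tracheal sum came from verm, with means of 5664 in body wall and 3523 in wing/hinge. Of the 6 tracheal probe sets 5 were positive, while kni was negative, with means of 264 and 399. The btl groups did not overlap but were dim, with means of 80.5 and 14.8, the latter under the floor. The larval muscle sums, 369 to 733 and 336 to 548, overlapped. The sums of the adult muscle precursor, haemocyte, fat body and tracheal markers were thus higher on every body wall array than on any wing/hinge array, and their part in the members' values was not tested. In RNA from whole fragments, fewer cells of a type and less RNA per cell cannot be told apart.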

How the data were processed

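The values are linear intensities, 1 per probe set and array, scaled by the authors before they were deposited: on every array the 14010 probe sets had a trimmed mean of 300.0 or 300.1. Target preparation followed the standard Affymetrix procedure, per the labels' description. For the summary algorithm and scanner, a name is not given in the sources used here. Groups and replicate numbers came from the sample titles.

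Gene symbols came from a platform annotation table (12443 probe sets with 1 symbol, 327 with several, 1196 with none). The RefSeq table of Release 6 served for names and gene order only. The 44 control probe sets were left out. The floor was the 20th percentile of fly values (20.4), lower values were raised to it ahead of the log2 step, and probe sets above it on at least 3 arrays were tested: 11698 with limma 3.58.1 in R 4.3.3 (lmFit, eBayes, two-sided, no block), Benjamini-Hochberg adjustment over all, threshold 0.05. Intervals are 95%, per probe set, and cover the spread between arrays. Precision is limited by the number of arrays. The fit was tested on simulated data.

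Members and lists were chosen with earlier results of these data known, so no list was tested. The grouping by place in the ribosome and by family was made after values were seen. Genes named are the 10 largest differences in each direction, members with several probe sets, called or extreme genes of the companion lists and all regulators; others are examples of their group. No probe set named a mitochondrially encoded gene. Alternatives covered scaling, floor, filter, variance, blocks, averaging body wall 1 and 2, and arrays left out, and values within sets of arrays by brightest value were added after seeing the data. Same-numbered arrays of the groups had deviations from their group means that correlated at 0.060, -0.16 and 0.19 over probe sets. Such values cannot settle whether the numbers pair the samples, because a shared source need not show in these deviations. The main analysis used no pairing.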

Additional observations from a re-analysis of the deposited data

How the results depend on the processing

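No member was called in any of the 15 alternatives (limma), with a lowest adjusted p of 0.321, and no gene of the companion lists was called either. The member median stayed positive throughout, from 0.041 with equal array medians to 0.23 without body wall 3, with a range of 0.075 to 0.23 over the fits without 1 array. The median over all probe sets was -0.069 with equal array medians and 0.014 without body wall 3. Without body wall 2 it was 0.048, and the member median of 0.075 lay only 0.027 above it. Without wing/hinge 3 it was 0.036, and the member median of 0.091 lay 0.055 above it. Without wing/hinge 1 the member median lay 0.22 above that of all probe sets. On the dimmer set of arrays alone the member median was 0.305. Calls over all probe sets, 107 in the main analysis, were 161 with trend and robust variance, 52 with the block by brightest value, 49 with body wall 1 and 2 averaged, and 34 to 47 with 1 array left out. The replicate block gave 10 calls over all probe sets and none among the members. Whether arrays with the same number come from the same discs is not stated, so this block cannot be read as a paired analysis. Of 22 named probe sets, 7 changed sign in some of these alternatives, and none of them was called. The dimmer mRpL12 probe set gave -0.076 after quantile normalization, -0.089 with equal medians, -0.12 with the floor doubled and -0.17 with the block by brightest value, and -0.36 to 0.46 with 1 array left out. With that block mRpS11 gave 0.051 and mRpL33 0.032. With 1 array left out, mRpL33 ran from -0.35 to 0.23, mRpS11 from -0.40 to 0.094, the brighter mRpL11 probe set from -0.39 to 0.15, mRpS6 from -0.28 to 0.019, mRpS33 from -0.605 to 0.087 and mRpL39 from -0.37 to 0.13. Within the dimmer set of arrays, mRpS17 gave 0.13 and the dimmer mRpL11 probe set 0.064, and within the brighter set mRpS18B gave -0.060, each of the other sign than in the main analysis and without a test. The causes were not tested. Signal near background limits the value of the dimmer mRpL12 probe set.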
